A study of Homo sapiens with 16 samples.

Results

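The expression of 10 junction genes was followed over a course of HER2 inhibition. They are 5 claudins (CLDN1, CLDN3, CLDN4, CLDN7 and CLDN8), occludin (OCLN), the junctional adhesion molecule F11R, the scaffold protein TJP1, and the cadherins CDH1 and CDH3. All probes that the array table pairs with one of these 10 symbols were taken, which gave 14 of 24526 probes and 10 of 18631 gene symbols. Of the 14 probes, 12 were detected on all 16 arrays and were tested, and together they covered all 10 genes. The other 2 probes, one of OCLN (ILMN_2255088) and one of F11R (ILMN_2270053), were detected on 0 arrays and were not tested.

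Tight junctions are belts of membrane proteins that seal the space between neighbouring epithelial cells. Claudins form the strands of the belt and set which ions can pass, with sealing claudins on one side and pore-forming claudins on the other, while occludin and F11R sit in the same strands or beside them and TJP1, also called ZO-1, ties them to actin inside the cell. Below the belt lie the adherens junctions, in which cadherins hold cells together through their extracellular domains. CDH1, or E-cadherin, is the cadherin of the luminal breast epithelium, and CDH3, or P-cadherin, is best known from its basal layer.

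SUM-225, written SUM225 below, is a breast cancer cell line in which HER2 is both amplified and over expressed, and it was given 1 µM CP724,714, a small molecule inhibitor of the HER2 kinase. RNA of parallel cultures was taken every 3 h from 0 to 45 h, and each of the 16 time points was measured on 1 Illumina bead array. All cultures came from 1 line grown, per the labels, in Ham's F-12 medium with fetal bovine serum, insulin and hydrocortisone, whereas the study's methods name a serum-free medium without insulin for this line. The labels list the inhibitor for all 16 samples, with 0 h as the start of treatment. No untreated course was analysed, so the effects of the inhibitor and of time in culture cannot be told apart. In RNA from whole cultures, a change in every cell and a change in the share of cells that make an RNA cannot be told apart either.

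Median signal per array ranged from 242 to 384, and 57.5% to 61.5% of all probes were detected. Levels are given as normalized log2 signals, in which 1 unit is a 2-fold difference on the scale after the offset, so that folds of dim probes are understated. The linear change is the straight-line part of a cubic course fitted to all 16 arrays and scaled to 45 h. Its standard error (SE) comes from the scatter around that course, since no time point had a replicate. The precision of each estimate is thus limited by the small number of arrays. Adjusted p-values are from limma over all 16110 probes tested, with a threshold of 0.05. The course was also split into 4 windows of 4 consecutive arrays, of which the first covers 0 to 9 h, the second 12 to 21 h, the third 24 to 33 h and the last 36 to 45 h. These windows were taken from an earlier re-analysis of the same table, not from the study, in which shifts between such sets of arrays had been noticed. The labels name no batch, and such shifts between windows and a course over time cannot be told apart by the windows alone.

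The claudins moved in different directions. CLDN8 and CLDN3 rose most among the 10 genes, CLDN4 rose less and with more scatter, CLDN1 fell, and CLDN7 did not pass the test. Over the 12 tested probes, 6 had a rising linear change (50% of them, against 26.0% of all probes tested) and 2 a falling one (16.7%, against 21.7% of all). The 6 rising probes were those of CLDN8, CLDN3 and CLDN4, both of TJP1 and 1 of F11R, and the 2 falling probes were those of CLDN1 and CDH3. The median linear change of the 12 probes was 0.39 log2 units, and that of all probes was 0.05.

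**Figure D1:**
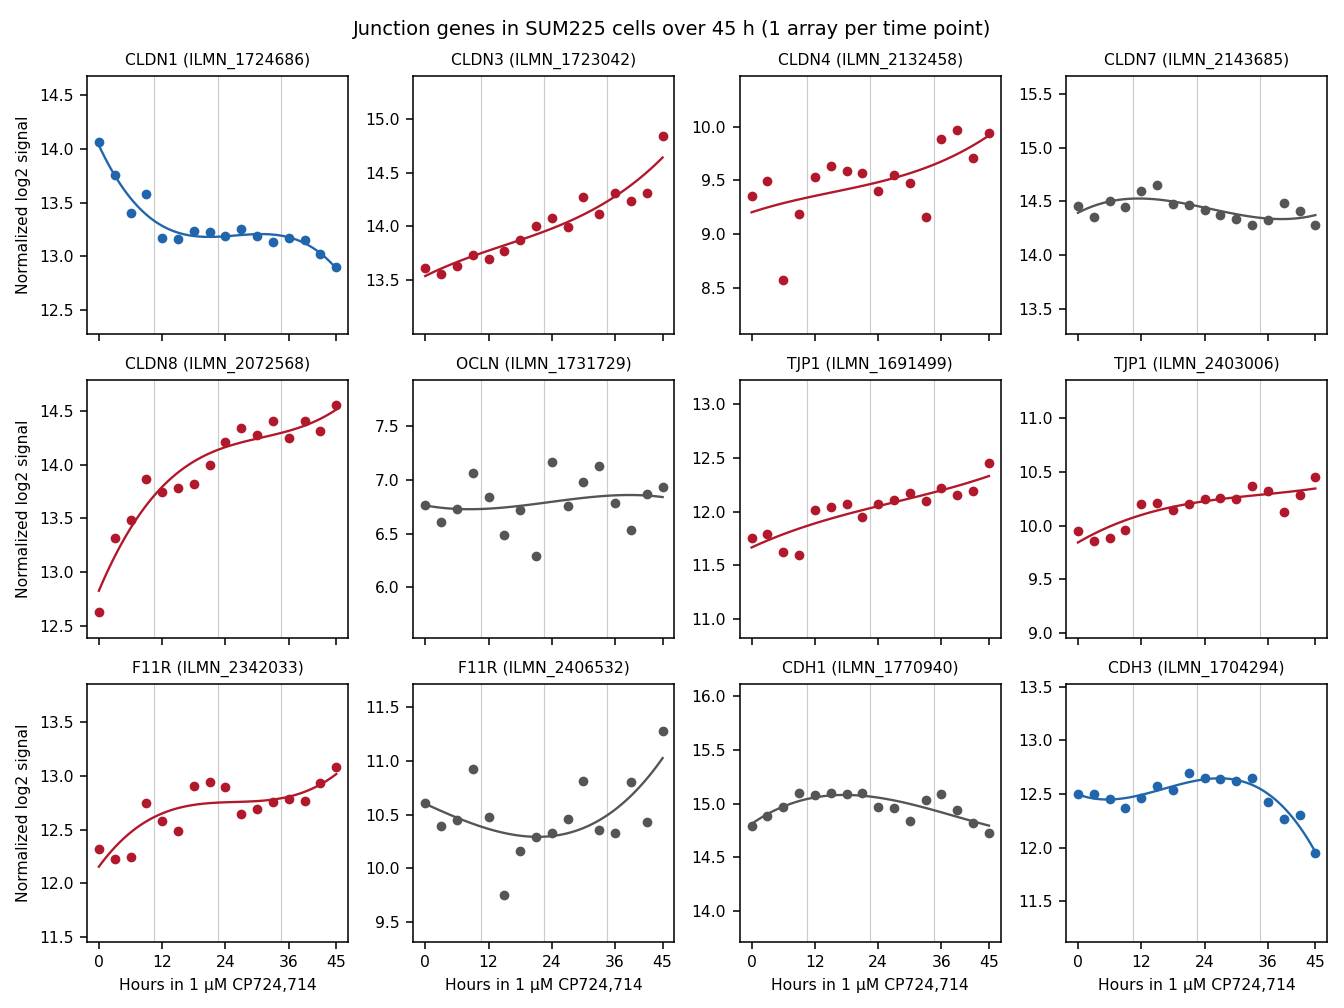
Normalized log2 signal (vertical axis, each panel spanning the same number of units) of the 12 tested probes against hours in 1 µM CP724,714 (horizontal axis). Each point is 1 array, the line is the fitted cubic course, grey lines separate the 4 windows, and red, blue and grey mark probes whose linear change rose, fell or did not pass the test. CLDN8 climbed from 12.62 to 14.55 and CLDN1 dropped from 14.06 to 12.90, while CDH3 left its earlier level only in the last window.

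CLDN8 (probe ILMN_2072568) belongs to the claudins that tighten the barrier to cations and is best known from the distal nephron. Its log2 signal at 0, 3, 6 and 9 h was 12.62, 13.31, 13.48 and 13.87, and it ran from 14.25 to 14.55 at 36 to 45 h. The first array was thus the lowest of the course, the last was the highest, and no value of the last window reached down to the first. From 0 to 45 h the signal rose 3.81-fold. The linear change was 1.42 ± 0.11 (SE) log2 units (limma, adjusted p = 3.8e-09). The course was curved (adjusted p = 0.0045), with its widest step of 0.69 log2 units between 0 and 3 h. Without the 0 h array the linear change was 1.15 log2 units and still passed the test.

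CLDN3 (ILMN_1723042), a sealing claudin of many glandular epithelia, followed a nearly straight path. It lay at 13.62, 13.56, 13.63 and 13.74 at 0, 3, 6 and 9 h, and at 14.31, 14.24, 14.31 and 14.84 at 36, 39, 42 and 45 h. All 4 late values were above all 4 early ones, and the array at 45 h stood highest. The signal rose 2.34-fold from 0 to 45 h, and the linear change was 1.02 ± 0.09 (SE) log2 units (limma, adjusted p = 2.6e-08). No curvature passed the test (adjusted p = 0.352). The widest step, 0.53 log2 units, was the last one, from 42 to 45 h.

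CLDN4 (ILMN_2132458) is the chromosomal neighbour of CLDN3 and, like it, a receptor for the enterotoxin of Clostridium perfringens. Its values at 0, 3, 6 and 9 h were 9.36, 9.49, 8.57 and 9.18, and those at 36, 39, 42 and 45 h were 9.88, 9.97, 9.70 and 9.94. The 6 h array was far below the others, and the late window did not overlap the early one. The linear change was 0.65 ± 0.21 (SE) log2 units (limma, adjusted p = 0.015), but the test of the whole cubic course did not pass (adjusted p = 0.0768). Within windows the CLDN4 signal did not rise: with the window as a factor, the slope scaled to 45 h was -0.84 ± 0.69 (SE) log2 units (adjusted p = 0.616).

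CLDN1 (ILMN_1724686), the sealing claudin without which skin loses its water barrier, went the other way. It read 14.06, 13.76, 13.41 and 13.58 at 0, 3, 6 and 9 h and then dropped to between 13.16 and 13.24 at 12 to 21 h. It then stayed between 13.13 and 13.25 until 33 h and ended at 12.90. The first 4 arrays were the highest of the course and did not overlap any later array. The signal at 45 h was 2.24-fold below that at 0 h, and the linear change was -0.74 ± 0.08 (SE) log2 units (limma, adjusted p = 1.5e-07). The course was curved (adjusted p = 0.0012), and its widest step, -0.41 log2 units, fell between 9 and 12 h, where 1 window gives way to the next.

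CLDN7 (ILMN_2143685), a claudin also found along the lateral membrane, stayed within a 1.30-fold range. Its lowest signal was 14.28, the median 14.43 and the highest 14.66, reached at 15 h. Early and late windows overlapped. The linear change was -0.16 ± 0.07 (SE) log2 units and did not pass (limma, adjusted p = 0.0694). It did pass under cyclic loess (-0.21, adjusted p = 0.0448), under median scaling (-0.26, adjusted p = 0.0314), without the 3 h array (-0.21, adjusted p = 0.0287) and without the 39 h array (-0.20, adjusted p = 0.0304). Before normalization its highest signal, at 27 h, was 42.7% of the brightest signal on that array.

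The promoters of the 3 claudins that passed the linear test, and for which RefSeq windows were given, are printed to show the sequence just before and after each start. Each window runs from 250 bases before the start to 50 after it, in GRCh38.p14 of RefSeq, on the coding strand. CLDN1 lies at chr3:190322397-190322696 (minus strand), CLDN3 at chr7:73770221-73770520 (minus strand) and CLDN4 at chr7:73830746-73831045 (plus strand). Capitals mark the E-box CACCTG, a site of the SNAI and ZEB repressors, and the grainyhead core CCGGTT, a site of the epithelial GRHL factors, on either strand.
CLDN1: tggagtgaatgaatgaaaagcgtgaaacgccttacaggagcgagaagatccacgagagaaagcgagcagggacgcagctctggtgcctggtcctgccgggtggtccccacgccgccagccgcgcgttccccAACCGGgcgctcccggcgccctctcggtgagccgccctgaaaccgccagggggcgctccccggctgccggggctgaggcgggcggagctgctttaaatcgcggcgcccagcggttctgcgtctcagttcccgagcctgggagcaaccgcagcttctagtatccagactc
CLDN3: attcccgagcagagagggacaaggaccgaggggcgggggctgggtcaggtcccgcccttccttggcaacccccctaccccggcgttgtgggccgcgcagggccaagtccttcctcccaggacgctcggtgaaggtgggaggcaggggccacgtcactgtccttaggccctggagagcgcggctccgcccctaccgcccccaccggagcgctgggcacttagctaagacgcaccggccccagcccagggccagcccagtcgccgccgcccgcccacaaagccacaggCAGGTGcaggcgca
CLDN4: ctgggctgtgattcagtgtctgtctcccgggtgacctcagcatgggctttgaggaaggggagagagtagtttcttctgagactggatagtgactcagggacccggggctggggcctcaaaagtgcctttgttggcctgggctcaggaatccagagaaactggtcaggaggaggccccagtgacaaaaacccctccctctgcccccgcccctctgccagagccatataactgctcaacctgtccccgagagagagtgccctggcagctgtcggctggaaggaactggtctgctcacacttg
The CLDN1 window held 1 grainyhead core, read as AACCGG on this strand, 119 bases before the start. That of CLDN3 held 1 E-box, read as CAGGTG, 36 bases after the start, and that of CLDN4 held neither. For CLDN7, whose linear change did not pass, 1 window, not printed, held 5 E-boxes and 2 grainyhead cores, and another held neither. Of the 10 genes, 6 had windows in the table, with 11 windows in all. The E-box was in 5 of these 11 windows and in 20.6% of all 35116, and the grainyhead core in 3 of 11 and in 7.23% of all. These matches describe the letters only and are neither shown to be bound nor tied to the direction in which a gene moved.

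OCLN, F11R and TJP1 come next, the strand proteins beside the claudins and the scaffold beneath them. TJP1 rose on both of its probes, F11R on 1 of the 2 that were detected, and OCLN did not pass the test. Occludin, a protein with 4 membrane passes that seals the belt where cells meet, had a dim probe (ILMN_1731729) with deposited signals of 231 to 364. Its lowest log2 signal was 6.29 at 21 h, the median 6.78 and the highest 7.17 at 24 h, so that neighbouring arrays spanned the whole range. Its linear change of 0.15 ± 0.21 (SE) log2 units did not pass (limma, adjusted p = 0.605).

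F11R, or JAM-A, is an immunoglobulin-like protein that cells use to contact one another at the belt. Its brighter probe (ILMN_2342033) lay at 12.32, 12.23, 12.25 and 12.75 at 0, 3, 6 and 9 h and between 12.77 and 13.08 at 36 to 45 h. The 9 h value came close to the late ones, which all lay above it. The linear change was 0.62 ± 0.12 (SE) log2 units (limma, adjusted p = 0.00018). The second detected probe (ILMN_2406532) ranged from 9.75 at 15 h over a median of 10.44 to 11.28 at 45 h, and its early and late windows overlapped. Its change of 0.32 ± 0.21 (SE) log2 units did not pass (adjusted p = 0.233), and the 45 h array set much of it, with 0.05 log2 units left without that array. The linear changes of the F11R probes had the same sign but only 1 passed, and from the first to the second window the probes went opposite ways, by 0.34 and -0.42 log2 units (adjusted p = 0.0368 and 0.098). Which transcripts each detects was not examined.

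TJP1 links claudins, occludin and F11R to the actin cytoskeleton through its PDZ and other domains. Probe ILMN_1691499 read 11.75, 11.79, 11.62 and 11.60 at 0, 3, 6 and 9 h and from 12.16 to 12.45 at 36 to 45 h. Probe ILMN_2403006 read 9.95, 9.86, 9.89 and 9.96 at the same early hours and from 10.13 to 10.45 at the late ones. On both, all late values lay above all early ones. The linear changes were 0.63 ± 0.10 and 0.45 ± 0.10 (SE) log2 units (limma, adjusted p = 3.5e-05 and 0.00077). On both the widest step was that from 9 to 12 h, of 0.42 and 0.24 log2 units. With the window as a factor the slopes, scaled to 45 h, were 0.03 ± 0.36 and 0.32 ± 0.39 (SE), so that no rise within windows was seen beyond its error.

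The cadherins were marked by their shape rather than by a trend. CDH1 (ILMN_1770940) rose from 14.79 at 0 h to 15.10 at 9 h, stayed between 15.08 and 15.10 until 21 h, and ended at 14.73 at 45 h. The first and the last arrays were thus among the lowest, and the full range was 1.30-fold. The linear change, -0.10 ± 0.07 (SE) log2 units, did not pass (limma, adjusted p = 0.271), whereas the test of time dependence (adjusted p = 0.0082) and that of curvature (adjusted p = 0.017) did. Before normalization its highest signal, at 21 h, was 64.1% of the brightest on that array. Under median scaling the linear change of CDH1 was -0.28 log2 units and passed (adjusted p = 0.0201).

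CDH3 (ILMN_1704294) kept to between 12.37 and 12.70 from 0 to 33 h and then fell. The values at 36, 39, 42 and 45 h were 12.43, 12.26, 12.31 and 11.95, all below the 4 values at 24 to 33 h, which ran from 12.62 to 12.65. The last window lay 0.40 log2 units below the one before it, 1.32-fold (limma, adjusted p = 0.0075). The linear change over the whole course was -0.23 ± 0.07 (SE) log2 units (adjusted p = 0.014), with a curved course (adjusted p = 0.00053). That linear change depended on the last array, since without 45 h it was -0.06 log2 units (adjusted p = 0.598), and it did not pass with a straight line alone (adjusted p = 0.189).

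**Figure D2:**
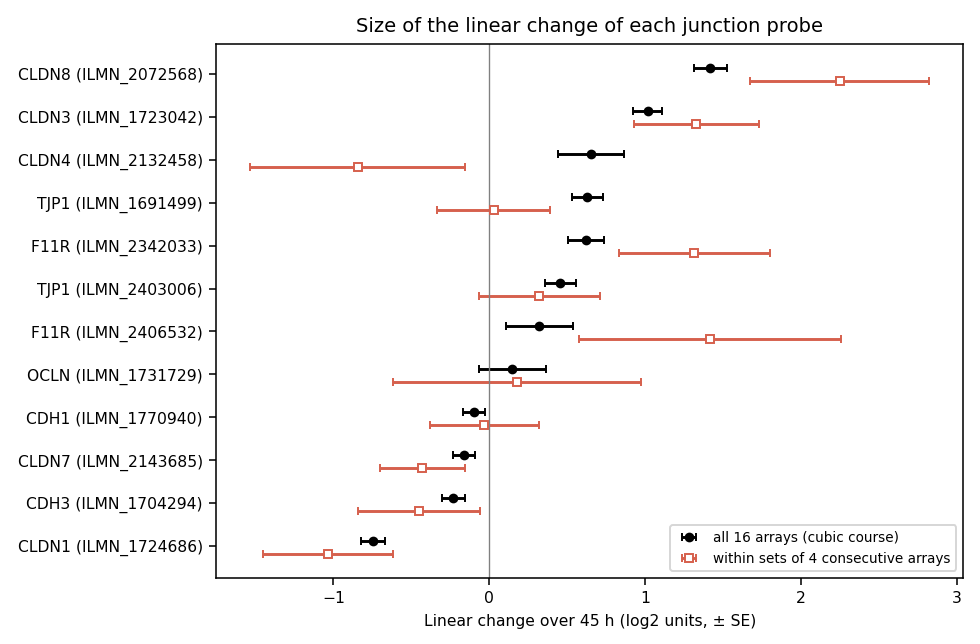
Linear change over 45 h in log2 units (horizontal axis) with its standard error as bars, for each of the 12 tested probes (vertical axis). Black circles come from the cubic course over all 16 arrays and red squares from a straight line within the 4 windows, where only differences within 9 h count. CLDN4 changed sign, from 0.65 to -0.84, and the other 11 probes kept theirs with wider errors.

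The windows describe the course in coarse steps. Their bounds came from an earlier look at the same data, so a step between windows is not read as a time of onset. Against 0 to 9 h, the window 36 to 45 h was higher for 6 of 12 probes (24.9% of all probes tested) and lower for 2 (20.0% of all). The 6 higher probes were those with a rising linear change, and the difference was largest for CLDN8, with means of 13.32 ± 0.52 and 14.38 ± 0.13 (SD, n = 4 arrays each). The late values lay wholly above the early ones for the same 6 probes (19.7% of all probes) and wholly below for 1, CLDN1 (16.3% of all). CDH3 differed by -0.22 log2 units (adjusted p = 0.0436), a call that was lost when any of 11 of the 16 arrays was left out. The 12 probes had a time-dependent course in 8 cases (66.7%, against 51.3% of all) and a curved one in 4 (33.3%, against 19.3% of all).

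Most calls between adjacent windows were between the first and the second. From 0 to 9 h to 12 to 21 h, 5 of 12 probes rose (15.9% of all probes) and 1 fell (13.9% of all). CLDN1 fell by 0.50 log2 units (limma, adjusted p = 0.00088), out of 0.64 over the whole course. CLDN8 rose by 0.51, CLDN4 by 0.43, F11R (ILMN_2342033) by 0.34 and the TJP1 probes by 0.33 and 0.27 (adjusted p from 0.0027 to 0.037). CLDN3 gave 0.20 and did not pass at this step (adjusted p = 0.169). At an unadjusted p under 0.05, CDH1 was also higher (0.16) and the second F11R probe (ILMN_2406532) lower (-0.42). From the second to the third window 0 probes rose (4.21% of all) and 0 fell (3.36% of all) in limma. At an unadjusted p under 0.05 this step had 3 probes higher, those of CLDN3, CLDN8 and OCLN, and 1 lower, that of CLDN7. From the third to the fourth window 0 rose (0.720% of all), with CLDN3 and CLDN4 higher at an unadjusted p under 0.05, and 1 fell, that of CDH3 (2.82% of all). Calls made at one step and missed at another were not tested against each other.

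Differences within windows were tested with the window as a factor, a fit in which each line spans only 9 h. By limma, 0 of the 12 probes passed, and 145 of all 16110 did. At an unadjusted p under 0.05 there were 4, CLDN8 at 2.25 ± 0.57 (SE) log2 units per 45 h, CLDN3 at 1.33 ± 0.40, F11R (ILMN_2342033) at 1.31 ± 0.48 and CLDN1 at -1.03 ± 0.42. Of the 8 probes with a linear change over all arrays, 7 kept their sign within windows, the exception being CLDN4. When the fit allowed a jump from 21 to 24 h, the linear changes of CLDN1, CLDN3, CLDN8 and F11R (ILMN_2342033) passed. Those that did not were CLDN4 at 1.33 log2 units (adjusted p = 0.078), TJP1 at 0.65 (ILMN_1691499, adjusted p = 0.0904) and 0.43 (ILMN_2403006, adjusted p = 0.269), and CDH3 at -0.17 (adjusted p = 0.583). The CLDN4 and TJP1 estimates were thus no smaller, or hardly smaller, than without the jump, and their tests were weaker.

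Among the members 2 pairs are chromosomal neighbours in RefSeq. These are CLDN3 with CLDN4 on chromosome 7 and CDH3 with CDH1 on chromosome 16, with 0 protein-coding genes between them. For each of these 2 pairs the difference of log2 signals on the same array was followed over the 16 arrays. CLDN3 minus CLDN4 was 4.26 at 0 h and 4.90 at 45 h, with a slope of 0.36 ± 0.24 (SE) log2 units per 45 h (two-sided permutation test over 16 arrays, p = 0.152, adjusted over the 2 pairs p = 0.304). It rose to 0.56 without the 6 h array (adjusted p = 0.0274), the array at which CLDN4 was lowest. CDH1 minus CDH3 was 2.29 at 0 h and 2.78 at 45 h, with a slope of 0.14 ± 0.14 (permutation test, p = 0.336, adjusted p = 0.336). Unequal change within either pair was therefore not shown by all 16 arrays. A level of one probe cannot be set against that of another, so that only the change of such a difference has a meaning.

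The genes most like the strongest riser and the strongest faller were taken by Pearson r over the 16 arrays, as a description. Nearest to CLDN8 were GPR12 (r = 0.99), ADH1A (r = 0.98) and SYF2 (r = 0.98). Nearest to CLDN1 were CD83 (r = 0.94), CTPS (r = 0.94) and CDC7 (r = 0.94). All of these shared the same 16 arrays and a course over time, so high values are easily reached.

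The remaining junction genes were counted by lists, using the brightest probe of each gene, to be read beside the 26.0% of all probes that rose and the 21.7% that fell. Of 8 other claudins tested, 3 rose, 0 fell and 5 did not pass, with a median linear change of 0.10 log2 units. CLDN12 rose by 0.86 ± 0.09 (SE), CLDN15 by 0.74 ± 0.14 and CLDN14 by 0.25 ± 0.10, the last close to the threshold (limma, adjusted p = 0.0469). CLDN15 was at 0.41 without the 0 h array, and CLDN14 was at 0.16 without the 45 h array (adjusted p = 0.254) and passed in 6 of 16 fits with 1 array left out. Another 6 of the 14 other claudins on the array were detected on 0 arrays. Of 23 other tight junction genes tested, 13 rose, 2 fell and 8 did not pass, with a median of 0.44 beside 0.05 over all probes. Among them were ESAM, an adhesion molecule related to F11R, at 1.81 ± 0.18 (SE), and PARD6B, a subunit of the PAR polarity complex, at 0.79 ± 0.25. PARD6B depended on the last array, with 0.25 left without 45 h (adjusted p = 0.244). MAGI1, a junction scaffold, also passed, but it was detected on 7 arrays and at neither end of the course, so that no size is given. TJP3, a paralog of TJP1 that was picked after its value was seen, also rose, by 0.64 log2 units. The 2 with a falling linear change, likewise named after their values were seen, were CGNL1 at -0.56 ± 0.16 (SE) and CSDA, or YBX3, at -0.25 ± 0.07 (limma, adjusted p = 0.0056 and 0.0055). The CGNL1 course was curved (limma, adjusted p = 0.0055). Its log2 signal was 10.53 at 0 h and 10.65 at 45 h, so it did not end below its start. With the window as a factor 0 genes of either list passed, and with the jump from 21 to 24 h 1 other claudin and 3 other tight junction genes did.

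For adherens junctions, 12 partner genes were tested, of which 5 rose, 2 fell and 5 did not pass, with a median of 0.17 log2 units. The number passing was 0 with the window as a factor and 0 with the jump. The nectins, immunoglobulin-like adhesion proteins that work beside cadherins, moved both ways. PVRL1, or nectin-1, fell by 1.29 ± 0.17 (SE) log2 units, and PVRL4, or nectin-4, rose by 0.95 ± 0.16. ARVCF, a catenin that binds cadherin tails, rose by 0.59 ± 0.22, a call lost without the array at 6, 36, 39 or 45 h (adjusted p up to 0.0782). Of 6 other cadherins tested, 0 rose, 1 fell and 5 did not pass. The one was CDH15, or M-cadherin, which was not detected at 45 h and was at least 1.90-fold lower there than at 0 h. The gene for N-cadherin, CDH2, named after its value was seen, had a change of 0.17 log2 units that did not pass (adjusted p = 0.407).

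Regulators known to act on these genes were counted as well, again beside the 26.0% of all probes that rose and the 21.7% that fell. Of 8 repressors of E-cadherin, 5 were on the array, since ZEB1, ZEB2 and TWIST2 had no probe under these symbols. SNAI1 and SNAI2 were detected on 0 arrays. TWIST1 fell by 0.53 ± 0.15 (SE) log2 units and TCF3 by 0.49 ± 0.14, and the third one tested did not pass. Of these repressors 0 passed with the window as a factor and 0 with the jump. Without the 0 to 9 h window TWIST1 was at -0.03 (limma, adjusted p = 0.936). Of 12 epithelial regulators tested, 7 rose, 1 fell and 4 did not pass, with a median of 0.43. The number passing was 0 with the window as a factor and 2 with the jump, and it was 5 when the 0, 3 or 6 h array was left out in turn. ELF3, an ETS factor of epithelia, rose by 1.85 ± 0.13 (SE) log2 units, KLF5 by 1.10 ± 0.13 and OVOL2, a repressor of mesenchymal genes, by 0.63 ± 0.14. With the jump OVOL2 was at 0.05 (limma, adjusted p = 0.935). The grainyhead genes GRHL1, GRHL2 and GRHL3, named after their values were seen, rose by 0.48 ± 0.18, 0.39 ± 0.14 and 0.52 ± 0.16 (SE) (limma, adjusted p = 0.034, 0.026 and 0.012). The test of the whole cubic course passed for GRHL2 (limma, adjusted p = 0.013) but not for GRHL1 (0.116) or GRHL3 (0.067). The 1 with a falling linear change, EHF, also named after its value was seen, changed by -0.31 ± 0.12 (SE) log2 units (limma, adjusted p = 0.037). The EHF course was curved (limma, adjusted p = 0.031). Its log2 signal was higher at 45 h than at 0 h, so EHF did not end below its start. Whether any of these bears on the junction genes was not tested.

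**Figure D3:**
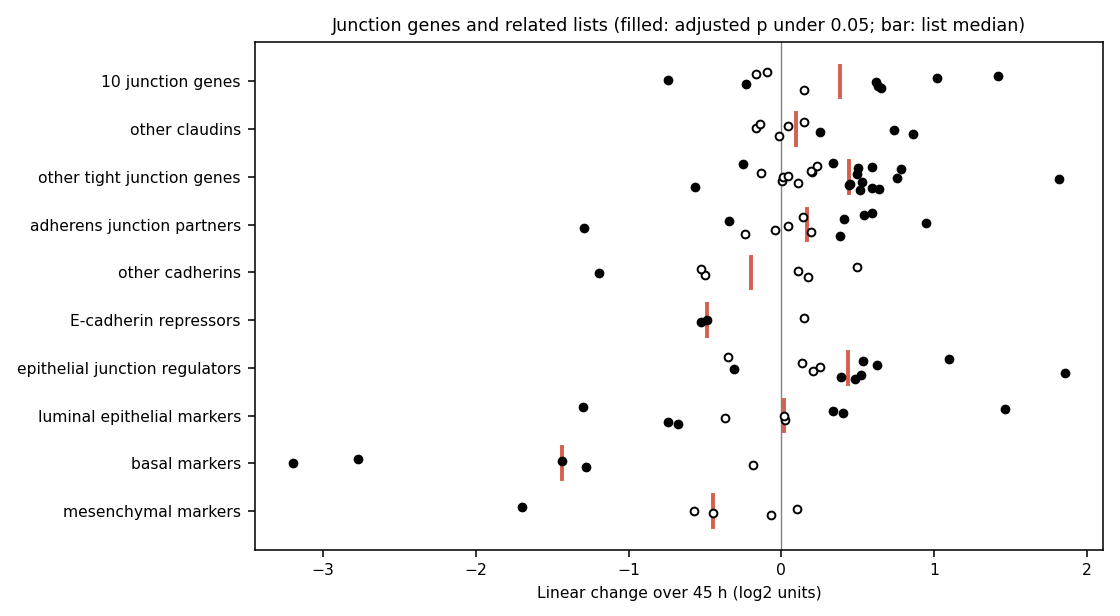
Linear change over 45 h in log2 units (horizontal axis) of the brightest probe of each gene, for the 10 junction genes and 9 related gene lists (rows). Filled points passed the limma test, open points did not, and the red bar is the median of the list. The tight junction genes outside the 10 members have a median of 0.44, and KRT17 lies farthest left at -3.20. The lists include genes not detected at an end of the course, among them MYLK, whose fitted value is the median of the basal markers.

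Markers of cell types were set beside these courses, and their counts are to be read beside the same shares (26.0% of all probes rose, 21.7% fell). Of 9 luminal markers on the array all 9 were tested and 8 were detected on all 16 arrays, and 3 rose, 3 fell and 3 did not pass. KRT19 and ERBB2, named after their values were seen, were among those that did not pass, with deposited signals between 66523 and 72059. The brightest signal per array was 71727 to 74152, so both lay near the top of the scale, where a change may not show. The linear change was 1.46 ± 0.12 (SE) log2 units for MUC1 and -0.74 ± 0.10 for KRT18. TFF1, detected on 10 arrays and not at 45 h, fell, and was at least 1.05-fold lower at 45 h than at 0 h. Basal and myoepithelial markers fell in 4 of 5 cases, with a summed signal of 20751 to 25279 at 0 to 9 h and of 4958 to 5973 at 36 to 45 h. This sum was mainly that of KRT17, with log2 signals of 14.29 at 0 h and 11.46 at 45 h, and of KRT5, at 12.03 and 11.03. KRT17 changed by -3.20 ± 0.10 (SE), OXTR by -2.77 ± 0.29 and KRT5, named after its value was seen, by -1.28 ± 0.20. MYLK passed too but was detected on 6 arrays and at neither end of the course, and TP63 and CNN1 were detected on 0 arrays. Over the same course CLDN1 fell from the first hours on, whereas CDH3 fell only in the last window. Whether the basal decline had a part in either was not tested. Mesenchymal markers were tested in 5 cases, of which 1 fell, ACTA2 at -1.70 ± 0.18, and 4 did not pass. ACTA2 and S100A4 in this list, and TFF1 in the luminal one, were not among the planned markers. VIM, COL3A1, SPARC, THY1 and PDGFRB were detected on 0 arrays. The summed signals were 16058 to 19188 early and 14020 to 16577 late. They were mainly those of S100A4, named after its value was seen, with log2 signals of 13.81 at 0 h and 13.68 at 45 h. Its linear change of 0.10 ± 0.21 (SE) log2 units did not pass (limma, adjusted p = 0.729). Of 2 leukocyte markers tested CD14 rose by 0.34 ± 0.14 (adjusted p = 0.0499), a call kept in 6 of 16 fits with 1 array left out (0.15 without 45 h, adjusted p = 0.404), and PTPRC was detected on 0 arrays. Of 3 endothelial ones VWF was at least 3.78-fold higher at 45 h than at 0 h, with TEK on 0 arrays and CDH5 on 1. With the jump from 21 to 24 h the linear change of VWF was 0.44 (limma, adjusted p = 0.590). The other 2, named after their values were seen, had falling estimates that did not pass. They were PECAM1 at -0.56 ± 0.23 (SE) log2 units (limma, adjusted p = 0.0537) and KDR, detected on 4 arrays and at neither end of the course.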

How the data were processed

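Gene expression was measured in 16 cultures of SUM225 cells, grouped by the time in their labels. Per the labels, biotinylated cRNA was made with the TotalPrep-96 kit. The study's methods describe an Illumina Ref8 array and quantile normalization, while the array version and scanner of these samples were not given in the sources used here. The deposited table holds a linear signal intensity per probe and array, to which the authors applied neither background subtraction nor normalization, and a deposited detection p-value per probe and array. It pairs each probe with a symbol and names no genome build.

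Signals were corrected with normexp (negative controls inferred from detection p-values, offset 16), quantile normalized and log2 transformed by neqc of limma 3.58.1 in R 4.3.3. Testing was limited to the 16110 probes that at least 3 arrays detected at p under 0.05. A cubic in hours was fitted with lmFit and eBayes (trend), giving tests of time dependence, linear change and curvature, and the 4 windows were compared as a factor. P-values were two-sided and adjusted over all probes by the Benjamini-Hochberg method. Since each time point had 1 array, the error comes from scatter around the course or within windows and also holds true change that these do not follow. Slopes of within-array differences were tested with 100000 permutations. Fits were tested on simulated data. Folds of probes not detected at an end of the course were computed against the lowest detected log2 value of that array. Promoter windows of RefSeq GRCh38.p14 were searched on both strands. All 10 symbols matched RefSeq, and plots used matplotlib 3.10.9 (Python 3.11.15).

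The members and lists were chosen with earlier results of these data known. Named were all member probes, up to 3 genes per list past the linear threshold with the largest change, and the 3 genes most correlated with the strongest riser and faller, while exceptions are stated. Alternatives were no background correction, a larger offset (50), median scaling or cyclic loess for the quantile step, no filter or detection on all 16 arrays, array weights, other shapes of the course (straight line, quadratic, spline with 4 degrees of freedom), the window as a factor, a step between 21 and 24 h, and each array left out in turn.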

Additional observations from a re-analysis of the deposited data

How the results depend on the processing

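No paired analysis was possible because all time points had a single array. The count of member probes with a linear change was 8, and it became 0 with the window of 4 arrays as a factor, which leaves only differences within 9 h, and 4 with a step between 21 and 24 h, where the changes of CLDN4 (1.33) and TJP1 (0.65 and 0.43) lost their call but not their size. The cause of the latter was not tested. Curved probes numbered 2 to 4 when each array was left out, with 2 without the 0 h array, against 4. The within-array slope of CDH1 to CDH3 was -0.027 under median scaling and 0.04 to 0.20 with each array left out, and that of CLDN3 to CLDN4 was 0.26 to 0.56. The linear calls of CLDN1, CLDN3, CLDN4, CLDN8, CDH3, both TJP1 probes and F11R (ILMN_2342033) held under all 4 background and normalization alternatives, whereas the call of CDH3 between 36 to 45 h and 0 to 9 h was lost under median scaling (-0.23, adjusted p = 0.0672).

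Signs of linear changes turned under the step for CDH1 (0.18), CLDN7 (0.014), F11R ILMN_2406532 (-0.38), OCLN (-1.05), PARD6B (-0.14) and TCF3 (0.27), and with the window as a factor for CLDN4 (-0.84), PVRL1 (0.29), TCF3 (0.18) and TWIST1 (0.38). None of these turned values passed the test. The difference between 36 to 45 h and 0 to 9 h turned for 3 uncalled probes. It ran from -0.11 to 0.014 for CDH1, -0.072 to 0.25 for F11R ILMN_2406532 and -0.074 to 0.079 for OCLN over the arrays left out, and was 0.0018 for OCLN with array weights. Of 348 values of the members' linear change under alternatives, 318 kept sign and call, 17 lost a call, 8 gained one and 5 turned. The counts of the related lists stayed within 1.5 times in 255 of 319 cases.

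Leaving out the 0 and 45 h arrays together, or the window 0 to 9 h, was added after the data were seen. Without that window, 9 member probes passed, but CLDN4 (0.45) and TJP1 ILMN_2403006 (0.22) lost their calls, CDH1 (-0.39), CLDN7 (-0.36) and F11R ILMN_2406532 (1.06) gained one, and CLDN15 turned (-0.29). The planned use of every pair of detected probes for the neighbour slopes was not run, as each of these genes had 1 detected probe. The dim probe of OCLN limits what can be said of occludin, and 1 array per time point limits all results.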
